A study of Mus musculus with 4 samples.

Results

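Gm14372, Mir7053, Zfp775, 4933428G20Rik, Hsf5 and Fignl2 are the mouse genes with the most hypermethylated CpG sites near their annotated starts in liver. A site was 1 strand of a CpG with a coverage of at least 10 reads in all 4 livers, and it was hypermethylated when its mean methylation over the livers was above 80% and hypomethylated when it was below 20%. The genes were chosen by these measured values, as the first 3 ranks of 2 counts over the 26180 genes with a curated RefSeq start. One count covered 1 to 5000 bp upstream of the start, and the other covered 2000 bp on each side of it. Windows of 5000 bp on each side of the 6 starts held 674 of the 1276684 sites read in all 4 livers.

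Livers came from male mice of 6 to 8 weeks on a normal diet, of which 2 had a mixed background and are called Mixed-1 and Mixed-2, and 2 were C57BL/6, labelled Black-6, and are called B6-1 and B6-2. Each mouse was 1 replicate, and pairs of values follow the mouse numbers. DNA was profiled by enhanced reduced representation bisulfite sequencing (ERRBS). The paper's account of this method names the enzymes MspI, which cuts at CCGG, and TaqαI. Short fragments are sequenced after bisulfite treatment. Methylated cytosines are then read as C and unmethylated ones as T, and 5-methylcytosine and 5-hydroxymethylcytosine are not separated. Mean coverage per site was higher in the B6 livers, with a range of 44.2 to 63.7 over all 4, and coverage at single sites of the windows ran from 10 to 171 reads. The strains were housed at different institutions, so strain, housing and depth cannot be told apart in any comparison of Mixed with B6.

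In mammals most CpGs are methylated, whereas CpG-dense sequence at gene starts usually stays free of methylation. Methylation of a start region is associated with silence of the gene, while methylation inside the body of a gene is common in genes that are transcribed. A count of methylated CpGs upstream of a start therefore mixes these situations wherever genes overlap or lie close together. Liver holds several cell types, and a site's percentage is the share of DNA copies over all of them.

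The 6 genes are of different kinds. Gm14372 is a long noncoding RNA, and Mir7053 encodes a microRNA, a short RNA that pairs with messenger RNAs through its seed. Zfp775 encodes a zinc finger protein, and 4933428G20Rik is annotated as protein coding. Hsf5 belongs to the heat shock factor family of transcription factors and is known from the testis, and Fignl2 is a relative of fidgetin in the family of AAA ATPases. Every one of them had 1 curated start.

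The start of Zfp775 and the starts of 4933428G20Rik and Hsf5 are shown first because CpG-rich sequence carried opposite states there. Each runs from 250 bases before to 50 bases after the start, 5′ to 3′ on the strand of the gene, from RefSeq's GRCm38.p6. Capitals mark CpGs with a site read in all 4 livers.
Zfp775: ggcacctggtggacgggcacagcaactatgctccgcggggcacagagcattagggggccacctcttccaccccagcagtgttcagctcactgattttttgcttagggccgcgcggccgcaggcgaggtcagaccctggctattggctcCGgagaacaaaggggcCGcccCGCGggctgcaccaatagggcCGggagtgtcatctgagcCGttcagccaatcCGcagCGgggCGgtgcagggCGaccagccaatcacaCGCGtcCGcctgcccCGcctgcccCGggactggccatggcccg
4933428G20Rik: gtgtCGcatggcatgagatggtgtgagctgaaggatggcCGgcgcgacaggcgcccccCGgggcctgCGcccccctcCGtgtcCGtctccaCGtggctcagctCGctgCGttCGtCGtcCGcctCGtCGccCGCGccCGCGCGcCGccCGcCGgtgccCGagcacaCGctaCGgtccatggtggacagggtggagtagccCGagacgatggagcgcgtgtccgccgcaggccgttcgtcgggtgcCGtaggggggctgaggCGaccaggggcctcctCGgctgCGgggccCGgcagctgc
Hsf5: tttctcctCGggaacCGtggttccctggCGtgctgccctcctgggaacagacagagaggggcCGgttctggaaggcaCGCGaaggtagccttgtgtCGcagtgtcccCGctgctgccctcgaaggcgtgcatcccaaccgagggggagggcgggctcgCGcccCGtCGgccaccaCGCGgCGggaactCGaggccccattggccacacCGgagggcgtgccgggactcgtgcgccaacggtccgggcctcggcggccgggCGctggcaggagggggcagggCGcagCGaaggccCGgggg
The Zfp775 stretch (chr6:48601757-48602056, plus strand) held 24 CpGs, and its 20 sites had a mean methylation of 0.132%, the highest at 2.01%. The 4933428G20Rik stretch (chr11:97500291-97500590, minus strand) held 42 CpGs, and its 35 sites had a mean of 84.2%. The Hsf5 stretch (chr11:87616914-87617213, plus strand) held 34 CpGs, and its 24 sites had a mean of 88.7%. The same assay thus read nearly no methylation in one CpG-rich start and high methylation in the other two.

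Sequence from the densest parts of the windows is shown for the other 3 genes and for the upstream sites of Zfp775. These parts were picked by their number of sites, whether hypermethylated or not. The Fignl2 run lies from 500 to 1000 bp downstream, where 14 of 119 sites were hypermethylated. Each is the run of 200 bases with the most sites of its window, written and marked as above.
Gm14372 densest: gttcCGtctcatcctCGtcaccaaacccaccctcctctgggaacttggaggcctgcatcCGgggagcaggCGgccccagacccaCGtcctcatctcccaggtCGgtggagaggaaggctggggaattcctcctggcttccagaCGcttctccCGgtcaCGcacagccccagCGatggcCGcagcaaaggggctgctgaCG
Mir7053 densest: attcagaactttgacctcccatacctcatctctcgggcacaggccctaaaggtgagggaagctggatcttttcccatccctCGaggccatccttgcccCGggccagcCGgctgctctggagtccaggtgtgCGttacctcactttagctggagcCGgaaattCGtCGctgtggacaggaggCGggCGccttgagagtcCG
Zfp775 densest: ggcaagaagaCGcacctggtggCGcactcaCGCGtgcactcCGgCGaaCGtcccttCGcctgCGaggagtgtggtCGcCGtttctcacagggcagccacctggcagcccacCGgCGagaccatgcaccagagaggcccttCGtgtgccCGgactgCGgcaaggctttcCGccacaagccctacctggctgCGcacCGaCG
Fignl2 densest: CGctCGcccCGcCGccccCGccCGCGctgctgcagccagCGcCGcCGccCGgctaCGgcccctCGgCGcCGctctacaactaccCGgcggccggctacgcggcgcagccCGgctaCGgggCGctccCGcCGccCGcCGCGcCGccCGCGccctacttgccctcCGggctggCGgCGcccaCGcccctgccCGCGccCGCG
The Gm14372 run (chr7:144410108-144410307, minus strand) lay from 3364 to 3165 bp upstream and had a mean of 83.4% over 18 sites. The Mir7053 run (chr7:44540376-44540575, minus strand) lay from 2397 to 2198 bp upstream and had a mean of 85.6% over 17 sites. The Zfp775 run (chr6:48597477-48597676, plus strand) lay from 4530 to 4331 bp upstream and had a mean of 94.9% over 28 sites. The Fignl2 run (chr15:101053674-101053873, minus strand) lay from 526 to 725 bp downstream and had a mean of 64.3% over 65 sites, the lowest mean of the 4 runs.

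The 2 rankings chose different genes, and 4933428G20Rik was in the first 3 ranks of both. Upstream, Gm14372 had 59 hypermethylated sites of 73 measured, Mir7053 52 of 56, 4933428G20Rik 48 of 75 and Zfp775 48 of 63. The next genes were Pold1, which encodes the catalytic subunit of DNA polymerase delta, with 47 of 68, and Tmem88, which encodes a transmembrane protein, with 45 of 73. Hsf5 had 21 of 22 and Fignl2 2 of 2 in the same region. Of the 15231 genes with a site upstream, 5385 (35.4%) had a hypermethylated one. Over 2000 bp on each side, Fignl2 had 74 hypermethylated sites of 262, 4933428G20Rik 64 of 92 and Hsf5 64 of 75, followed by Ezhip with 43, Gm16617 with 40 and Lhb, which encodes the beta subunit of luteinizing hormone, with 39. Gm14372 had 10 there, Mir7053 4 and Zfp775 2. These counts chose the genes, so they are given with no test.

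In 4 of the genes the upstream count lay in the body of another gene. All 207 hypermethylated upstream sites of Gm14372, Mir7053, Zfp775 and 4933428G20Rik fell inside a neighboring or overlapping gene, 174 of them in coding sequence, 27 in introns and 6 in a 3′ UTR. Among all 5385 genes with a hypermethylated upstream site, 60.5% of these sites lay inside another gene, and 2441 of those genes (45.3%) had all of theirs inside. Among the 84 genes with at least 20 such sites the share was 92.3%, with all sites inside another gene for 73. The 8 genes with at least 40 all had every one inside another gene. Nearby genes can share sites in these counts.

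**Figure D1:**
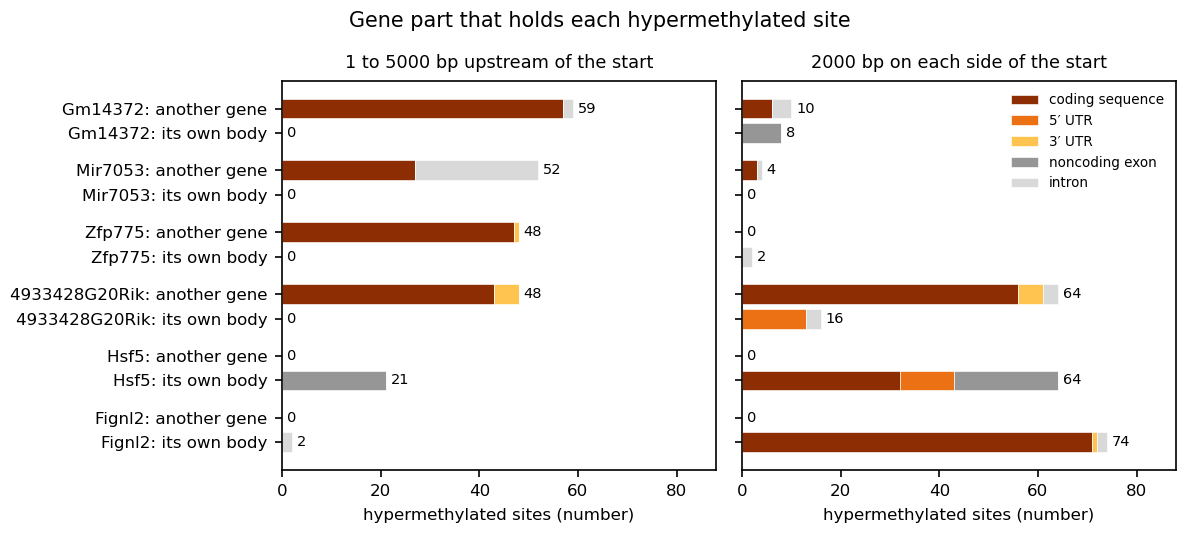
Bars give the number of hypermethylated sites (horizontal axis) that lie in another gene or in the gene's own annotated body, colored by gene part, for 1 to 5000 bp upstream of the start (left) and 2000 bp on each side (right). Upstream, the bars of Gm14372 (59), Mir7053 (52), Zfp775 (48) and 4933428G20Rik (48) lie in other genes, whereas those of Hsf5 (21) and Fignl2 (2) lie in their own bodies; overlapping genes count a site in both bars.

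Gm14372 lies on the minus strand of chromosome 7 with its start at 144406943. Shank2, which encodes a scaffold protein of synapses, runs through the whole window on the opposite strand. Of the 59 upstream sites, 57 were in Shank2 coding sequence and 2 in a Shank2 intron. A single stretch of 1302 bp from 4436 to 3135 bp upstream held 64 sites and 53 of the hypermethylated ones. Upstream methylation averaged 86.5% and 86.2% in the Mixed livers against 84.1% and 87.2% in the B6 livers. The B6 livers lay on both sides of the Mixed livers.

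The start of Gm14372 itself was not measured. No site read in all 4 livers lay within 500 bp of it, although the reference holds 23 CpGs there. The nearest site upstream was 893 bp away at 84.6%, and the nearest downstream was 1319 bp away at 88.2%. One further cytosine 425 bp from the start was read in B6-1 alone, at 40%. The 12 sites from 1319 to 1607 bp downstream had a mean of 83.7% ± 2.09 (SD, n = 4 livers), also within Shank2. The level at the start thus cannot be stated from these data.

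Mir7053 lies on the minus strand of chromosome 7 inside Pold1, which is transcribed in the same direction. Its hairpin (chr7:44538106-44538178) ends at the last base of a Pold1 intron of 221 bases, in which no site was read in all 4 livers. The annotated start is the 5′ end of the hairpin rather than a known start of transcription. The hairpin and both mature RNAs are shown as RefSeq gives them, because this locus ranked high with no measured CpG in the microRNA itself, and capitals mark the seeds (bases 2 to 8).
Mir7053 hairpin: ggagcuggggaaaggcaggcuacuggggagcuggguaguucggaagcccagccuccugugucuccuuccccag
mmu-miR-7053-5p: uGGGGAAAggcaggcuacugg
mmu-miR-7053-3p: cUCCUGUGucuccuuccccag
The seeds of the 2 arms differ. The hairpin holds 1 CpG, and neither mature RNA holds any.

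All 52 hypermethylated sites upstream of Mir7053 were in Pold1, 27 in coding sequence and 25 in introns. The upstream mean was 90.3% and 90.6% in the Mixed livers against 91.3% and 90.2% in the B6 livers, a range of about 1 percentage point. The nearest site upstream was 547 bp away at 92.1% and the nearest downstream was 2277 bp away at 94.2%. Within 500 bp none of the 21 reference CpGs was read in all 4 livers. The start of Pold1, 10637 bp upstream of Mir7053, was in the opposite state, with 13 sites at a mean of 0.0480% ± 0.0588 (SD, n = 4 livers). Methylated Pold1 body and unmethylated Pold1 start thus stood in the same gene.

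Zfp775 changed from methylated to unmethylated within its window. Its 48 hypermethylated upstream sites lay from 4614 to 4000 bp before the start, 47 of them in the coding sequence and 1 in the 3′ UTR of Repin1, a gene for a zinc finger protein that lies on the same strand and ends 2925 bp before Zfp775. That stretch averaged 92.8% and 94.1% in the Mixed livers against 94.9% and 94.0% in the B6 livers. The 29 sites from 102 bp before to 194 bp after the start averaged 0.0958% and 0.133% in the Mixed livers against 0.231% and 0.0454% in the B6 livers. Every one of the 29 was hypomethylated. The sites 8 bp on either side of the start had no methylated read in 348 and 346 reads over the 4 livers, which allows up to 0.862% and 0.867% at 3 reads of the total. Limits and intervals given here cover counting error only.

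The upstream average of Zfp775 hides this change. Its 63 upstream sites averaged 71.6% ± 0.699 (SD, n = 4 livers), and no site of the 63 lay between 20% and 80%. No site read in all 4 livers lay between the Repin1 stretch and the start stretch. Past the start, 2 intron sites more than 1500 bp downstream averaged 94.2%. The start of Repin1 was again unmethylated, with 20 sites at a mean of 0.0469%.

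4933428G20Rik was methylated across its start. It lies on the minus strand of chromosome 11 with its start at 97500340, inside the last part of Arhgap23, which encodes a GTPase-activating protein on the opposite strand and ends 2062 bp upstream. Of its 48 hypermethylated upstream sites, 43 were in Arhgap23 coding sequence and 5 in the Arhgap23 3′ UTR. The 84 sites within 1000 bp of the start averaged 82.7% and 84.1% in the Mixed livers against 80.3% and 83.4% in the B6 livers, with B6-1 the lowest. The sites nearest to the start, 4 bp upstream and 12 bp downstream, had 95.3% and 96.9%. The stretch from 517 bp upstream to 198 bp downstream held 106 CpGs in 716 bases, a ratio of observed to expected CpGs of 1.05, with a GC content of 75%. It was CpG dense, coding for Arhgap23 and methylated at the same time.

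Methylation was uneven within that stretch. The 64 sites in the 500 bp before the start averaged 80.6%, and the 14 sites in the 500 bp after it averaged 90.5% ± 1.92 (SD, n = 4 livers). Single sites ran from 23.6% to 100%. The lowest site, 282 bp upstream, had 22.5% and 20.5% in the Mixed livers against 15.5% and 35.9% in the B6 livers, at a coverage of 73 to 110 reads. Its neighbors 2 bases away on either side stood at 94.8% and 78.7%.

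Hsf5 was methylated on both sides of its start with no other gene over the sites. It lies on the plus strand of chromosome 11 with its curated start at 87617164, and its nearest neighbor, the phosphatase gene Mtmr4, ends 862 bp upstream. The 21 hypermethylated upstream sites lay in an exon of a predicted Hsf5 transcript that starts 765 bp earlier, and all of them were within 261 bp of the curated start. Of the 64 hypermethylated sites within 2000 bp, 11 were in the 5′ UTR, 32 in coding sequence and 21 in that exon. Start-region methylation over 75 sites was 87.7% and 88.6% in the Mixed livers against 88.3% and 89.9% in the B6 livers. The start region of the predicted transcript held 39 of the same sites, at 88.4% ± 1.45 (SD, n = 4 livers). All 39 lay downstream of the predicted start and no farther than 261 bp before the curated one, so the predicted start itself was not measured.

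Other heat shock factor genes had unmethylated starts. The start regions of Hsf1, the main regulator of the heat shock response, and Hsf2 averaged 0.157% over 104 sites and 0.286% over 88 sites. Hsf4, known from the lens, had 1.84% over 69 sites. Hsf3 had no site in its start regions. The start of Mtmr4 averaged 0.187% over 35 sites, so a methylated Hsf5 start followed an unmethylated Mtmr4 start on the same strand.

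Fignl2 held the largest number of sites and, within 1000 bp of the curated start, the lowest mean of the 3 methylated curated starts. It lies on the minus strand of chromosome 15 with its curated start at 101054399, and 260 of its 271 sites formed a stretch of 1618 bp from 31 bp upstream to 1586 bp downstream with 221 CpGs, a GC content of 74.6% and an observed-to-expected ratio of 0.984. Most of these sites were coding: 71 of the 74 hypermethylated sites within 2000 bp were in Fignl2 coding sequence. Right at the curated start the level was high, with 91.2% at the nearest site upstream, 19 bp away, and 94.9% at the nearest downstream, 13 bp away. The mean was 94.3% over the 5 sites from 250 bases before to 50 after it. The whole stretch of 1618 bp averaged 68.7% and 68.9% in the Mixed livers against 70.2% and 67.7% in the B6 livers. Within 2000 bp, 187 of 262 sites lay between 20% and 80%, and 28.2% were hypermethylated, compared with 85.3% in Hsf5 and 69.6% in 4933428G20Rik. The rank of Fignl2 thus came with many covered sites at intermediate levels.

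The profile of Fignl2 dipped inside the coding sequence. Its 58 sites in the first 500 bp averaged 75.2%, the next 119 sites 64.5%, the 68 sites from 1000 to 1500 bp 68.7%, and the 15 sites from 1500 to 2000 bp 80.6% ± 2.96 (SD, n = 4 livers). The 4 sites from 2000 to 2500 bp averaged 94.9%. The dip was present in every liver, with values between 62.6% and 66.3% from 500 to 1000 bp.

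The curated Fignl2 start was not its only annotated start. Predicted transcripts begin 2704 and 24185 bp upstream, so the curated start and its 2 upstream sites lie within the annotated gene. These 2 sites are in an intron of a predicted transcript, and the nearest site downstream is already in coding sequence. The curated start is thus where the curated record begins and need not be a start of transcription. The region at the farthest predicted start held 110 sites, which averaged 1.45% and 1.23% in the Mixed livers against 1.04% and 1.36% in the B6 livers, and 108 of them were hypomethylated. The region at the other predicted start held no site. Starts of the related genes Fign, which encodes fidgetin, a microtubule-severing enzyme, and Fignl1, which acts in DNA repair, averaged 0.218% over 93 sites and 0.194% over 20 sites.

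**Figure D2:**
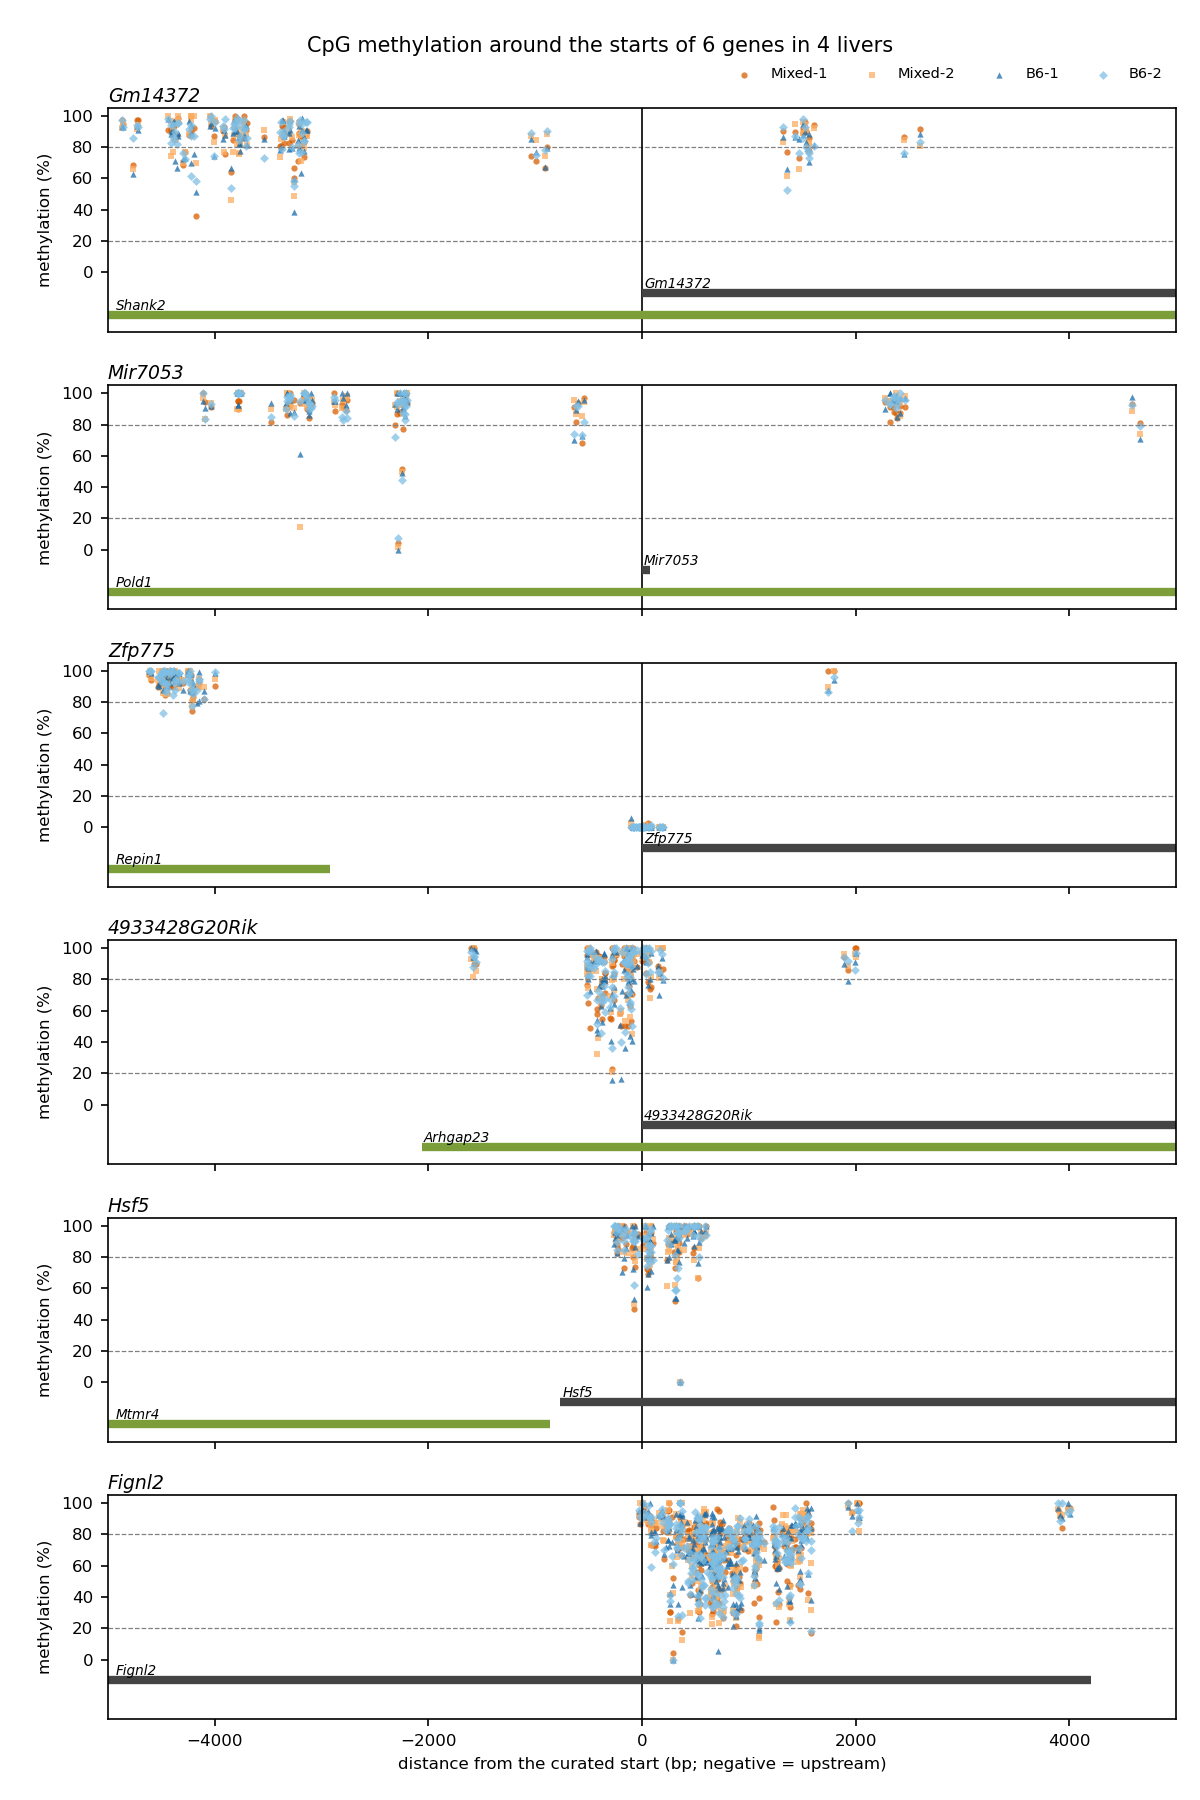
Methylation of each site (vertical axis, percent) against its distance from the curated start (horizontal axis, bp), with 1 symbol per liver, dashed lines at 20% and 80%, dark bars for the gene and green bars for neighboring genes. Sites at the Zfp775 start lie at 0 to a few percent in all 4 livers and its upstream sites above 70%, those around 4933428G20Rik and Hsf5 lie mostly above 80%, those of Fignl2 dip after the start, and no site lies near the starts of Gm14372 and Mir7053.

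Compared with all genes, the methylated starts were at the upper end. Of 13075 genes with at least 10 sites within 1000 bp of the start, the median start-region methylation was 0.237%, 95.8% of genes were below 20% and 180 (1.38%) were above 80%. Hsf5 was exceeded by 88 of these genes, 4933428G20Rik by 160 and Fignl2, at its curated start inside the annotated gene, by 248. Zfp775 was exceeded by 9979 genes and was thus an ordinary unmethylated start. Hsf5, 4933428G20Rik and Fignl2 were chosen for hypermethylated sites in this region, so their place is a description.

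**Figure D3:**
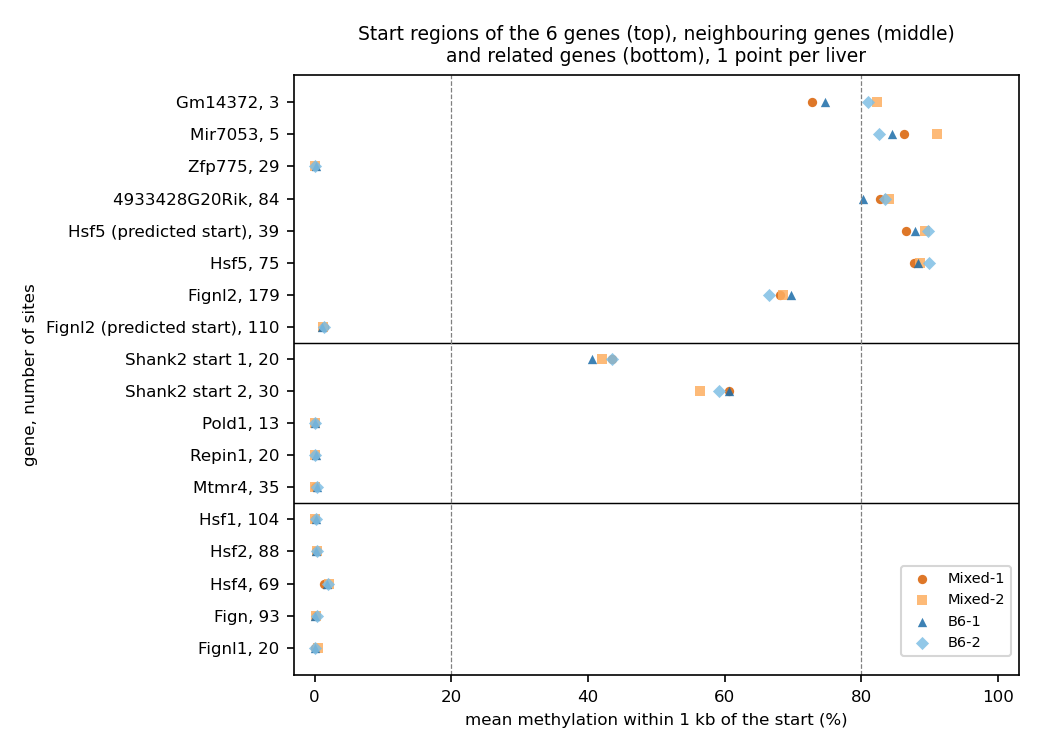
Mean methylation within 1000 bp of each start (horizontal axis, percent) with 1 point per liver; the vertical axis gives the gene and its number of sites. Hsf5, 4933428G20Rik and curated Fignl2 lie between 66.5% and 89.9% in single livers, whereas Zfp775, the far predicted Fignl2 start, Pold1, Repin1, Mtmr4 and the related genes lie near 0.

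Coding sequence gives a further point of comparison. Of 111916 sites in coding sequence more than 1000 bp from every curated start, 52.3% were hypermethylated, with a median of 82.4%. Of 111879 coding sites within 1000 bp of a curated start, 2.96% were hypermethylated. Shank2, in which the Gm14372 count lies, had intermediate methylation at its own 2 curated start regions, 42.5% over 20 sites and 59.2% over 30 sites. The region at the curated start of Arhgap23 held no site. Both Shank2 and Arhgap23 as annotated begin farther upstream than these curated starts, and methylation there was not examined.

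The reach of the assay differed between the windows. Upstream, 38.7% of the reference CpGs of Gm14372 had a site read in all 4 livers, compared with 26.2% in Mir7053, 37.3% in Zfp775, 44.4% in 4933428G20Rik, 23.8% in Hsf5 and 2.63% in Fignl2. In Fignl2 69.0% of the downstream CpGs were read. A low count in a region can therefore go with few CpGs read, as upstream of Fignl2, where 2 of 76 were.

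Outside the Zfp775 window, 3 sites were hypomethylated, 1 each in Mir7053, Hsf5 and Fignl2. In Mir7053 a plus-strand site 2289 bp upstream, in a Pold1 intron, had 4.17% and 2.00% in the Mixed livers against 0% and 7.69% in the B6 livers, while its 5 neighbors within 30 bases had 84.6% to 95.8%. The minus strand of the same CpG had 95.8%. In Hsf5 a plus-strand site 355 bp downstream had 0 methylated reads of 62 over the 4 livers, which allows up to 4.84%, and its 7 neighbors had 81.7% to 97.2%. In Fignl2 a plus-strand site 294 bp downstream had 2 methylated reads of 182, and the minus strand of the same CpG had 50.8%. Its 5 neighbors within 30 bases ranged more widely, from 32.9% to 87.7%. All 3 were low in every liver. All 3 lay in the sequence CCGG, and its CpGs, counting sites on either strand, held 130 of the 595 sites of the 5 windows other than Zfp775 (21.8%), and its part in these values was not tested. Over the CpGs read on both strands, the median difference between strands ran from 0.479 points in Zfp775 to 6.16 points in 4933428G20Rik.

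The strain contrast was not used to choose the genes. Upstream means of the strains differed by 0.703 points (Mixed minus B6) in Gm14372, -0.317 in Mir7053, -0.797 in Zfp775, 1.84 in 4933428G20Rik, -1.41 in Hsf5 and 0.434 in Fignl2. In 4933428G20Rik the Mixed livers (82.6% and 83.2%) lay above the B6 livers (79.7% and 82.3%), while the strains overlapped in the other 5. An exact permutation test of the 4 mice, two-sided, gave p = 0.33 for 4933428G20Rik, the smallest p this design allows, 0.67 for Zfp775 and Hsf5 and 1 for Gm14372, Mir7053 and Fignl2. With 2 mice against 2 the test cannot pass 0.05, so it does not settle whether any of these differences exceeded the spread between livers. By the same permutations, strains that do not differ would fail to overlap with a probability of 0.33. The lack of overlap in 4933428G20Rik is therefore not read as a strain result. The 4933428G20Rik difference was 0.515 points without B6-1 and 3.17 points without B6-2. With the reads of all sites pooled, the difference in 4933428G20Rik was -0.0120 points.

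No site of the 674 was called strain-variable. The call asked for a Benjamini-Hochberg adjusted p under 0.01 in the logistic model with overdispersion moderated by limma, adjusted over all common sites, and a difference of at least 25 points. It called 90 of the 1276684 common sites, or 0.00705%. The smallest adjusted p in the windows was 1. Limma on log2 ratios called 0 of all common sites, so its 0 in the windows says nothing about them. Fisher's test with the reads of a strain summed called 1612 common sites (0.126%) and 0 in the windows. Shares this small leave little room for a call among 674 sites. At an unadjusted p under 0.05 there were 42 of 674 sites (6.23%), 22 higher and 20 lower in Mixed, against 2.09% of all common sites, 65.3% of which were hypomethylated. By window these were 17 of 271 sites in Fignl2, 10 of 79 in Zfp775, 6 of 93 in 4933428G20Rik, 4 of 69 in Mir7053, 3 of 87 in Gm14372 and 2 of 75 in Hsf5.

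**Figure D4:**
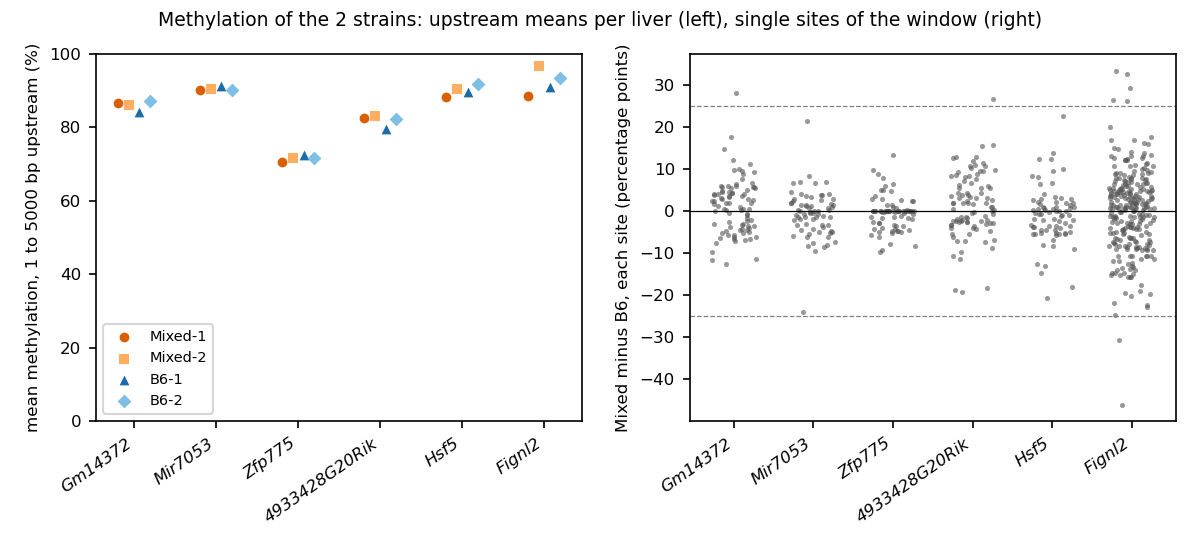
Left, mean methylation 1 to 5000 bp upstream (vertical axis, percent) with 1 point per liver for each gene; right, the difference of strain means at each site of the window (vertical axis, percentage points), with dashed lines at 25 points. Livers of both strains overlap in 5 genes. The points outside the dashed lines lie mostly in Fignl2, which held 271 of the 674 sites, and the share outside them over all common sites is not given here.

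The largest single-site differences were in Fignl2. A plus-strand site 660 bp downstream, in coding sequence, had 29.4% on 17 reads in Mixed-1 (95% exact binomial interval 10.3% to 56.0%) and 27.3% on 11 reads in Mixed-2 (6.02% to 61.0%). It had 86.8% on 38 reads in B6-1 (71.9% to 95.6%) and 61.9% on 42 reads in B6-2 (45.6% to 76.4%). The strains did not overlap at this site, which was chosen for its difference, and the depth behind the Mixed values was low. Sites 592 and 581 bp downstream differed the other way, by 33.3 and 32.4 points, with 14 to 25 reads per liver. None of the 3 had an adjusted p below 1.

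Elsewhere the largest differences were smaller. The Gm14372 site 4219 bp upstream, in Shank2 coding sequence, had 87.5% and 100% in Mixed and 69.7% and 61.7% in B6. The 4933428G20Rik site 192 bp upstream had 50% and 60% in Mixed and 16.7% and 40% in B6. The second largest in Mir7053, at 636 bp upstream, had 90.9% and 95.7% in Mixed and 70% and 73.7% in B6, with 66 to 80 reads per liver. In Hsf5 the largest difference was 22.5 points at 321 bp downstream, and in Zfp775 it was 13.4 points at 4482 bp upstream. At all 5 sites the strains did not overlap, but sites chosen for a large strain difference favor this. The adjusted p was 1 at each.

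One Mir7053 site owed its difference to a single liver. At 3199 bp upstream, in Pold1 coding sequence, Mixed-2 had 14.3% on 14 reads (95% exact binomial interval 1.78% to 42.8%), whereas Mixed-1 had 93.9%, B6-1 61.2% and B6-2 95.2%. Both strains thus held a high value, and the spread within Mixed exceeded the difference between the strains, which was -24.1 points (Mixed minus B6). Over all sites, livers differed least in the Zfp775 window, with a median SD of 2.64 points, and most in the Fignl2 window, with 7.23 points.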

How the data were processed

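Liver DNA of 4 male mice, 2 Mixed and 2 B6, was profiled by ERRBS, and groups and replicate numbers were taken from the titles of the samples. The authors mapped reads to mm10. Their methods name BSMAP, while the submitters' processing notes name Bismark and SAMtools, and no version is given in the sources used here. The deposited tables give, for each CpG cytosine and strand, a raw count of reads as coverage, of at least 10, and 2 columns of percent values, for reads with C and for reads with T, as the authors computed them. All 1276684 sites present in the 4 tables lay on CpGs of GRCm38.p6, whose RefSeq annotation gave starts and gene parts. Methylated reads were the percent times the coverage.

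The mean over sites was taken in each liver and then over livers. For each gene, a two-sided exact permutation test compared the strains over the 4 mice. Single sites were tested across all common sites with a logistic model whose overdispersion, kept at 1 or above, was moderated with limma 3.58.1 under R 4.3.3. The value towards which sites were moderated, 1.79, was estimated from the 148481 sites pooled at 20% to 80%, a choice made after moderation over all sites had failed on simulated data, because sites near 0% or 100% have no spread. The model was then tested on simulated data. Sites were called at a difference of 25 points or more with a Benjamini-Hochberg adjusted p below 0.01. Nothing shows whether livers were also processed in batches. The permutation p-values rest on these 4 livers alone. Those of the logistic model rest mostly on the spread estimated over many sites, and less on the livers at the site itself. Fisher's test sums reads within a strain and leaves out the spread between livers. Other steps used the data.table package (1.17.8), Python 3.11.15, numpy 2.4.6, scipy 1.17.1, pandas 2.3.3, numba 0.67.0 and matplotlib 3.10.9.

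The 6 genes and all lists were chosen with earlier results of these data known. Named beside them were every gene over a site of the windows, the genes ranked next, and Hsf1, Hsf2, Hsf3, Hsf4, Fign and Fignl1. Single cytosines were named if called, or if among the 3 of a window with the largest strain difference. The low sites named beside their neighbors were chosen after their values were seen. Alternatives were other bounds for hypermethylated sites, a coverage minimum of 20, a coverage ceiling, merged strands, pooled reads, other windows, all sites of each mouse, other tests and thresholds, the replicate number as a block, and leaving out each mouse. The alternative of the most 5′ curated start is identical, since each gene has 1. At a coverage of 10, counting error at 1 site is wide, so levels are given over many sites or with their reads. RNA sequencing and data from other tissues or species were not used here.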

Additional observations from a re-analysis of the deposited data

Results flagged for a closer look

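Sites read in 1 to 3 of the 4 livers are outside every comparison above, and they were methylated in all 6 windows. Their means were 83.8% over 17 sites in Gm14372, 91.8% over 20 in Mir7053, 87.9% over 13 in Zfp775, 93.5% over 7 in 4933428G20Rik, 93.5% over 8 in Hsf5 and 88.9% over 8 in Fignl2. Most came from the B6 livers, which were sequenced more deeply. In Zfp775, for example, 13 of 13 were read in B6-1 and none in Mixed-1. They were singled out because they carry signal in data that the comparisons leave out. None of the Zfp775 sites was within 500 bp of its start, and the nearest was 2211 bp away.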

How the results depend on the processing

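The counts of hypermethylated upstream sites moved by over 1.5 times under 9 of 72 alternatives. Above 90%, Gm14372 had 29, and above 80% in every mouse it had 37. Within 2000 bp on each side, Gm14372 had 10, Mir7053 4, Zfp775 2, Hsf5 64 and Fignl2 74. At a coverage of at least 20, Hsf5 had 9 and Fignl2 0. Start-region methylation moved by over 1 SD under 2 of 46 alternatives, to 91.2% in Hsf5 at a coverage of 20 and to 75.9% in Fignl2 within 500 bp, and no start changed its class under any of them.

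Strain differences upstream changed sign under 13 of 71 alternatives. This design could not pass 0.05 under any of them. At a coverage of 20 they were -0.386 in Gm14372 and 0.781 in Mir7053. With pooled reads they were -0.364 in Gm14372, -0.0120 in 4933428G20Rik and 0.290 in Hsf5. Within 2000 bp on each side they were 5.10 in Mir7053, 0.387 in Zfp775 and -0.0988 in Fignl2, and with all sites of each mouse -2.16 in Fignl2. Leaving out a mouse gave -0.846 to 2.25 in Gm14372, -0.845 to 0.210 in Mir7053 and -3.58 to 4.45 in Fignl2. Without changing sign, it gave -1.31 (without Mixed-2) to -0.284 (without Mixed-1) in Zfp775, 0.515 (without B6-1) to 3.17 (without B6-2) in 4933428G20Rik and -2.60 (without B6-1) to -0.211 (without B6-2) in Hsf5. Mice with the same replicate number did not deviate from their strains together (correlation 0.000363 over sites of 20% to 80%), so no pairing by number was seen. Single sites also hold counting error, and this correlation does not show how the mice were processed. The replicate block leaves a difference of means as it is (0.703 in Gm14372) and called 0 sites in the windows.

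The count of strain-variable sites in the windows was 0 under all 10 alternatives, whereas over all common sites the 90 calls became 239 with the replicate block, 1612 with Fisher's exact test, 0 with limma on log2 ratios, 171 at an adjusted p under 0.05, 179 at a difference of at least 10 points, 81 at a coverage of 20, and between 0 (without either B6 mouse) and 282 (without Mixed-2) when a mouse was left out. Leaving out a mouse leaves 1 for its strain, which is then assumed to vary like the other. Depth limits single sites, and the starts of Gm14372 and Mir7053 were not read at all.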
